A study of Caenorhabditis elegans with 4 samples.

Results

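Chromosome V, the longest chromosome of *Caenorhabditis elegans*, carried 812 of the 5364 regions at which RNA polymerase II (Pol II) was called in late embryos. Every region listed on V was taken, whatever its width or score. The regions came from chromatin immunoprecipitation followed by sequencing (ChIP-seq), which recovers the DNA crosslinked to a protein. Of the 4 libraries, 2 were ChIP libraries made with 8WG16, a mouse monoclonal antibody against the heptapeptide repeat at the C-terminal end of the largest Pol II subunit, and 2 were input libraries of chromatin that was not immunoprecipitated. All came from whole embryos of N2, the wild-type laboratory strain, labelled hermaphrodite, kept at 20 °C and taken 4.5 hours after the early embryo stage, so all cell types of the embryo were pooled and no group carried a mutation or a treatment. The authors deposited a single list for both replicates together, with a start, an end and a q-value (a p-value adjusted for multiple testing) for each region on the WormBase WS180 build. Nothing below therefore has a replicate spread, the library depths are unknown, and no difference between chromosomes or between parts of V could be tested. Intervals are exact 95% binomial intervals that treat regions or windows as independent, cover counting error only and are too narrow where neighbours move together.

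Pol II transcribes protein-coding genes. A ChIP signal marks where it sits but does not by itself tell whether it is starting, paused or elongating. Autosomes of *C. elegans* have a central domain with little recombination, where conserved and broadly used genes are common, and a pair of arms with more recombination, more repeats and more young, duplicated gene families. V is known for its large families of seven-transmembrane chemoreceptor genes, many of which are expressed in a few sensory neurons.

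The gene names show this makeup. In the RefSeq table of the WBcel235 assembly, used only for names and chromosomes, V held 4995 of 19971 nuclear protein-coding genes, or 25.01%. It held 887 of 1307 genes of the 21 chemoreceptor families counted, or 67.9%. Among these were 180 of 220 srh genes, 156 of 193 str genes, 95 of 109 srw genes and 67 of 70 srbc genes. Families with little on V were sra, with 0 of 35 genes, srb, with 2 of 12, srv, with 5 of 30, and sre, with 12 of 54. V also held 167 of 269 nuclear hormone receptor genes, which encode ligand-regulated transcription factors, 41 of 74 cytochrome P450 genes and 42 of 67 UDP-glucuronosyltransferase genes, the last groups being enzymes that modify foreign and internal compounds. By contrast it held 7 of 78 ribosomal protein genes and 5 of 33 genes of proteasome subunits, both needed in all cells. Of the histone genes, which encode the proteins that DNA is wound around, 27 of 72 were on V, as were 85 of 239 C-type lectin genes, 87 of 322 F-box genes and 31 of 156 collagen genes. No region was assigned to a gene, because the gene table is of another build than the list.

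V was sparsely occupied for its length. Its 812 regions were 15.1% of the list (interval 14.2 to 16.1%) on 20.9% of the sequence spanned, the span of a chromosome being the end of its last region. This gave 38.9 regions per Mb on V against 68.4 on the other 4 autosomes together, a ratio of 0.569 (interval 0.527 to 0.614). The ratio was 0.421 to chromosome I, 0.538 to III, 0.614 to II, 0.795 to IV and 1.98 to X. Per gene the distance was larger, with 16.3 regions per 100 protein-coding genes on V and 34.3 on the other 4 autosomes. When the chemoreceptor genes were left out of the denominator, V had 19.8 regions per 100 remaining genes and the other autosomes had 35.5, a ratio of 0.557. All regions stayed in the numerator, because none was assigned to a gene. V was the lowest autosome by this count, and the part of gene content in its low density was not tested. The regions of V covered 714 kb, or 3.43% of its span, against 4.56% on the other autosomes.

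The low density of V went with long stretches that had no region at all. V was cut into 209 windows of 100 kb, and 42 of them held no region midpoint (20.1%, interval 14.9 to 26.2%). The other 4 autosomes had 40 such windows among 616 (6.49%, interval 4.68 to 8.74%), and all chromosomes together had 11.9%. Of the other windows of V, 96 held 1 to 4 regions, 53 held 5 to 9 and 18 held 10 or more. Windows with 10 or more regions were 8.61% on V and 27.4% on the other autosomes, and they held 28.4% of the regions on V against 53.0% there. The pooled values hide a range among autosomes. On IV alone, 11.4% of windows were empty (interval 7.12 to 17.1%, which overlaps with V) and 14.3% held 10 or more regions. The latter share was 44.7% on I. On X, 20.9% of windows were empty and none held 10 or more regions.

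**Figure D1:**
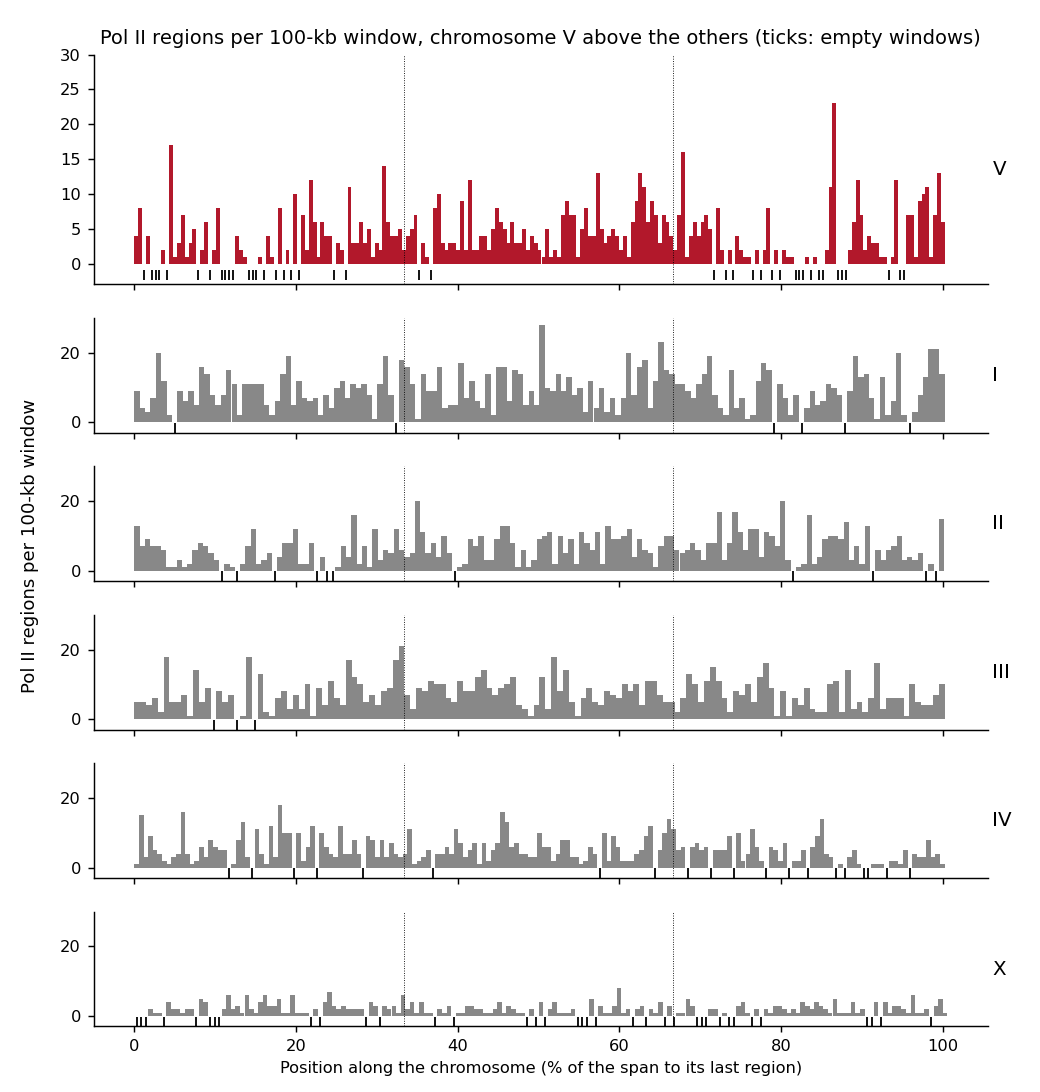
Regions per 100-kb window (bars) against position as a percentage of each chromosome's span, for V above the other 5 chromosomes; ticks under the bars mark windows with no region and dotted lines divide each span into 3 equal parts. V has 42 empty windows, of which 2 lie in its middle part, and its fullest window, with 23 regions, lies in the right part and is followed by 3 empty ones.

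Of the 42 empty windows, 40 lay outside the middle of V. With V cut into 3 equal parts, of which the outer ones are called arms here, 2 of 70 windows in the middle part were empty (2.86%), against 21 of 69 in the left part (30.4%) and 19 of 70 in the right part (27.1%). The intervals were 0.348 to 9.94% for the middle, 19.9 to 42.7% for the left and 17.2 to 39.1% for the right, so that the middle did not overlap with either outer part. From 7700001 to 14900000, 72 consecutive windows each held at least 1 region, and this stretch of 7.20 Mb contained 365 regions, or 44.95% of those on V. To its left lay 23 of the empty windows and to its right 19. The longest stretch of occupied windows had 117 of 138 windows on III, 69 of 150 on I, 63 of 153 on II, 35 of 175 on IV and 22 of 177 on X. The other autosomes had smaller shares of empty windows in their outer parts than V: the shares in the middle and the outer parts were 0 and 6% on I, 1.96 and 9.80% on II, 0 and 3.26% on III and 5.17 and 14.5% on IV. In the right part of V, 19 of 70 windows were empty (interval 17.2 to 39.1%), and in the right part of IV, 12 of 59 were (20.3%, interval 10.98 to 32.8%), so these intervals overlap. On X the shares were alike, 20.7% in the middle and 21.0% outside.

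By number of regions, the middle part of V held 327 (40.3%, interval 36.9 to 43.7%), the left part 225 (27.7%) and the right part 260 (32.0%). The density in the middle was 1.35 times that of the outer parts together, against 1.13 to 1.19 times on the other 4 autosomes. Single outer parts could differ from this, however. On IV the left part had 56.2 regions per Mb and the middle 53.9, and on II the right part had 70.1 and the middle 71.1. Where 100-kb windows were occupied, however, the middle and the outer parts of V had close means. An occupied 100-kb window held 4.84 regions on average in the middle part and 4.88 in the outer parts, a ratio of 0.992 (interval 0.859 to 1.14). The same ratio was 1.12 on I, 1.10 on II, 1.09 on III and 1.03 on IV. The V ratio depended on the window, with 0.931 for 50-kb windows and 1.24 for 200-kb windows, of which 6.67% were empty, and it was 0.843 for regions with a q-value of at most 0.001.

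**Figure D2:**
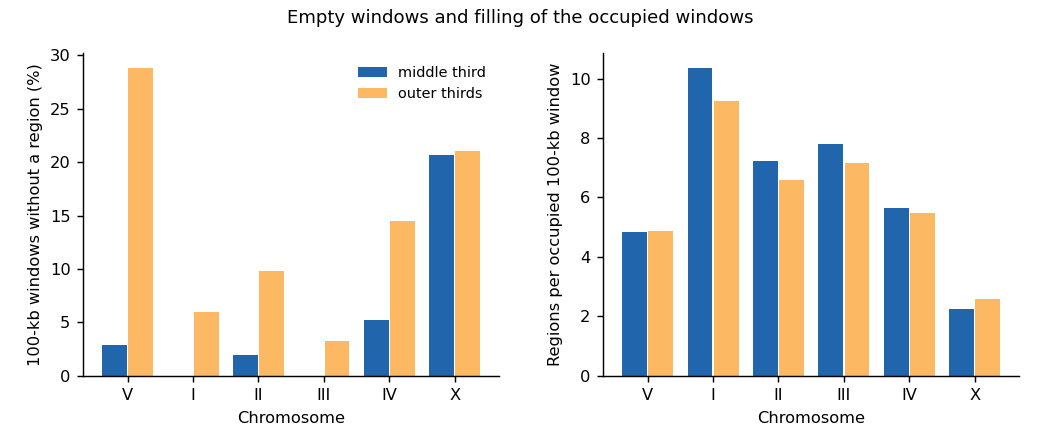
Share of 100-kb windows without a region (left panel, %) and mean number of regions per occupied window (right panel) in the middle and the outer 2 of 3 equal parts of each chromosome. On V, 2.86% of middle and 28.8% of outer windows were empty, while occupied windows held 4.84 and 4.88 regions.

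In steps of 1 Mb, the density along V changed several times. It was 35 and 28 regions in the first pair of 1-Mb windows and then dropped to 17 and 16 between 2000001 and 4000000, where 10 of 20 windows of 100 kb were empty and 1 of 33 regions reached 2000 bp. From 4000001 to 15000000 the windows held between 26 and 68 regions, with the highest counts from 11000001 to 12000000 (65 regions) and from 13000001 to 14000000 (68 regions). The highest counts of this stretch thus lay to the right of its centre. Beyond it came the longest sparse stretch, with 20, 18 and 15 regions in the 3 windows from 15000001 to 18000000, of whose 30 windows of 100 kb 12 were empty. On the right arm the count then rose to 56 regions from 18000001 to 19000000, fell to 28 in the next 1 Mb and was 65 in the last 848 kb. In both 1-Mb windows before the end piece, 3 of 10 windows of 100 kb were empty. Regions covered 2.63% of the former and 2.26% of the latter, against 3.43% of all V. The end piece, from 20000001 to 20847698, had 76.7 regions per Mb and 5.21% covered, and none of its 9 windows of 100 kb was empty.

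The 3 longest stretches without a region were on the left arm. They ran for 450 kb from 2197546 to 2647145, for 383 kb from 2875598 to 3258561 and for 362 kb from 361043 to 723260. The next ones were on the right arm, 354 kb from 18079637 to 18433284 and 349 kb from 16965981 to 17314966. In all, 49 gaps of 100 kb or more made up 8675 kb of V, or 41.6% of its span, against 19.2% on the other 4 autosomes. That share was 27.9% on IV alone and 52.3% on X. Of the 49 gaps on V, 19 were in the left part, 12 in the middle and 18 in the right part. All 13 gaps of 200 kb or more were in the outer parts, while the longest gap of the middle part was 166 kb. Counted as windows, the longest empty stretch was 4 windows from 2200001 to 2600000. Stretches of 3 windows lay at 400001 to 700000, 2900001 to 3200000, 17000001 to 17300000 and 18100001 to 18400000. V had 5 such stretches of 3 or more empty windows, whereas I, II, III and IV had none and X had 4.

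The long gaps divided V into 50 islands of regions. Of these, 8 consisted of a single region, 18 had fewer than 5 regions and 23 had 10 or more, and these 23 held 713 regions, or 87.8% of V. Islands of the middle part were the largest, with a median of 16 regions among 11 islands, against 8 among 20 islands on the left and 6 among 19 on the right. The largest had 104 regions over 1631 kb, from 12192227 to 13823668. Chromosome III, by comparison, fell into 13 islands and its largest held 37.6% of its regions, while the largest of V held 12.8%. III was the furthest from V in this, and IV was the closest autosome, with 32 islands and 14.95% in the largest. I and II lay between III and IV, with 15 and 23 islands and 20.9 and 24.5% in the largest. X fell into 54 islands, more than V, and its largest held 7.80%.

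An island on the right arm, bordered by long gaps, held the fullest window of V. Between 17858561 and 18079636, 36 regions stood within 221 kb, or 163 per Mb, with 320 kb before them and 354 kb after them without any region. On its left side, single regions of 413 bp (17538331 to 17538743), 499 bp (17314967 to 17315465) and 408 bp (16965573 to 16965980) were each at least 162.5 kb from any neighbour. The fullest window, from 18000001 to 18100000, held 23 regions. They were narrow, with a median width of 314 bp, and together covered 12.1 kb. Of the 23 regions, 12 had a q-value of at most 0.001, the smallest being 1.80e-15, against 529 of the 812 regions of V (65.5% of the whole list passed this limit).

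The other full windows differed from it in number, width or score. The window from 900001 to 1000000 on the left arm held 17 regions with a median of 380 bp, after an empty window and before one with 1 region. The window from 14100001 to 14200000 held 16 regions with a median of 811.5 bp, of which 15 had a q-value of at most 0.001, and they covered 16.9 kb. The window from 6400001 to 6500000 held 14. Ties at 13 regions followed, at 11900001 to 12000000, 13000001 to 13100000 and 20700001 to 20800000, and the first of these had the most covered sequence of all windows named here, 26.3 kb, which included 1 region of 10248 bp. A count of regions and the amount of sequence occupied were thus different rankings, although over the 167 occupied windows they went together (Spearman rho 0.79, a description, since both rise with each added region). Windows with 10 or more regions were in all 3 parts, with 5 in the left, 5 in the middle and 8 in the right.

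Regions on V had a larger median width than those on each of the other autosomes, with IV the closest. Widths ran from 2 to 10312 bp with a median of 530.5 bp (interval 493 to 570 bp), against a median of 397 bp on the other 4 autosomes together (interval 379 to 412 bp). The difference of 133.5 bp was 127 bp after neighbours less than 500 bp apart were merged. The other autosomes had medians of 358 bp on I, 380 bp on III, 410 bp on II and 472 bp on IV. X had 674 bp, so by its median V stood between the autosomes and X. The intervals of IV (428 to 506 bp) and X (561 to 808 bp) both overlap that of V. Regions of 2000 bp or more numbered 82 on V, or 10.1% (interval 8.11 to 12.4%), against 5.66% on the other autosomes (interval 4.98 to 6.40%). On IV alone they were 8.18% (interval 6.43 to 10.2%), which overlaps with V. Such broad regions held 39.7% of the covered bases of V and 31.3% on the other autosomes. At the other end, 53 regions of V were under 100 bp (6.53%), against 10.8% elsewhere on autosomes. V accordingly supplied 10.2% of the regions under 100 bp in the whole list, 13.1% from 100 to 499 bp, 17.2% from 500 to 999 bp, 18.8% from 1000 to 1999 bp and 23.0% from 2000 to 4999 bp. Its share of the 63 regions of 5000 bp or more was 17.5%, or 11 regions. By covered bases V made up 18.2% of the list, more than its 15.1% by number.

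**Figure D3:**
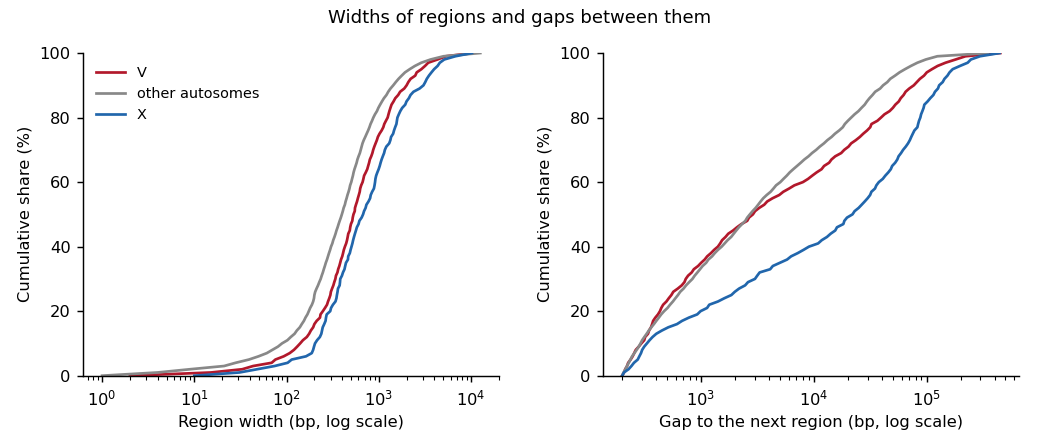
Cumulative share (%) of regions by width (left panel) and of gaps between neighbouring regions by length (right panel), with lengths on log axes, for V, the other 4 autosomes and X. The width curve of V lies between those of the other autosomes and X, and its gap curve follows the other autosomes up to a median of 2887 bp and then runs to longer gaps.

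Within V the regions of the right part had the smallest median width, with an interval that overlaps that of the left part. Their median width was 456.5 bp (interval 405 to 518 bp), against 575 bp in the middle (interval 520 to 637 bp) and 560 bp in the left part (interval 485 to 667 bp). Broad regions made up 9.23% on the right, 10.4% in the middle and 10.7% on the left. The right part, with more regions than the left (260 against 225, a ratio of 1.16, interval 0.963 to 1.39), covered less sequence, 198 kb on the right and 212 kb on the left. The right part was not uniform, with a median of 677.5 bp from 70 to 80% of the span and 379 bp from 80 to 90%. From 15000001 to 16000000, also in the right part, the median of 20 regions was 939.5 bp, the largest of any 1-Mb window. From 18000001 to 19000000 the median was 331 bp and 1 of 56 regions was broad. From 1000001 to 2000000 it was 860.5 bp and 9 of 28 regions were broad, the most of any 1-Mb window.

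The 5 widest regions were in the middle and left parts. The widest spanned 10312 bp (8784081 to 8794392), followed by the region of 10248 bp (11904291 to 11914538) and one of 9800 bp (6882611 to 6892410). Then came 7652 bp (4503527 to 4511178) and 6375 bp (10711754 to 10718128). The last had no other region in its 100-kb window and a gap of 147 kb on its right side. The region of 10248 bp stood in a window of 13 and had a weak score for its width, a q-value of 4.28e-23, whereas the widest had 7.18e-101.

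Between V and the other autosomes, short gaps differed less than long ones. The median gap was 2887 bp on V and 2713 bp on the other 4 autosomes, and the lower quartile was 546.5 bp on V and 625 bp there. The upper quartile was 27418 bp on V and 15406.5 bp on the other autosomes, and the 90th percentile was 76964 bp on V and 41148 bp there. These values were 22984.5 and 59477 bp on IV, nearer to V than the pool, and 75411 and 129139 bp on X. Another midpoint lay within 2 kb for 415 regions of V, or 51.1% (interval 47.6 to 54.6%), against 54.1% on the other autosomes and 23.4% on X. No regions overlapped, and the smallest gap was 200 bp on V as on the list as a whole. How many neighbours are pieces of 1 stretch cannot be told from the list, and 188 of 811 gaps on V were under 500 bp.

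Close neighbours were most common on the right. A midpoint within 2 kb was found for 60% of regions in the right part, 45.6% in the middle and 48.9% in the left. Linking regions less than 2000 bp apart gave 444 runs on V, of which 271 were single regions, 92 were pairs and 26 had 5 or more members. Runs of 5 or more held 174 regions (21.4%), against 22.3% on the other autosomes, and 12 of the 26 lay in the right part, 7 in the middle and 7 in the left part. The longest run, 12 regions over 13694 bp from 18601147 to 18614840, was on the right arm, and its regions covered 57.7% of it. Next came 11 regions over 13929 bp (13020170 to 13034098) in the middle part. Runs of 9 followed at 6477615 to 6489124 and at 14111184 to 14123918, with 74.0% and 70.1% of their length covered. There were 4 runs of 8, at 978194 to 987191, 13384507 to 13395712, 18072478 to 18079636 and 19614006 to 19623021. The run at 18072478 closes the island described above, directly before its gap of 354 kb.

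The q-values of V were spread much like those of the list. The limit of 0.001 was met by 529 regions of V, or 65.1%, against 65.5% of the whole list and 66.2% on the other 4 autosomes. The median was 0.000108 on V and 0.000142 on the other autosomes. At equal enrichment a wide region with more reads gets a smaller q-value, so classes of equal width were set side by side. In each of the 6 classes the median q-value was larger, that is weaker, on V, a difference that was not tested. For regions of 500 to 999 bp it was 2.84e-05 on V and 2.68e-06 on the other autosomes, and for 2000 to 4999 bp it was 6.93e-20 on V and 9.31e-32 there. Ranked by q-value, V supplied 3 of the first 25 regions of the list (12%), 16 of the first 100 (16%), 33 of the first 250 (13.2%) and 90 of the first 500 (18%, interval 14.7 to 21.7%), values on both sides of its 15.1% of the whole list.

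**Figure D4:**
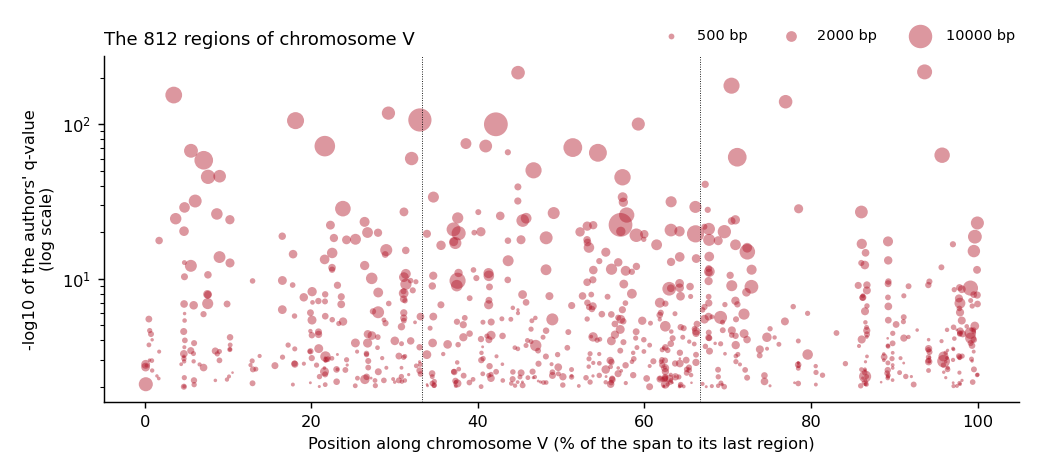
The −log10 of the authors' q-value (log axis) of each of the 812 regions against position along V as a percentage of its span; the area of a point grows with the width of the region, and dotted lines divide the span into 3 equal parts. High values occur in all 3 parts, and those at 3.48, 18.1, 76.9 and 93.6% of the span each have a gap of at least 184 kb on 1 side.

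Among the 10 strongest regions, 4 had a gap of at least 184 kb on 1 side. The smallest q-value of V, 2.04e-219, belonged to a region of 4019 bp at 19519052 to 19523070. It was the only region in its 100-kb window, with 184 kb free on its left and 90.9 kb on its right. The region ranked 4 on V, of 5045 bp at 723261 to 728305 (q-value 1.38e-155), had 362 kb free on its left and 45.04 kb on its right. The region ranked 5, of 3261 bp at 16040030 to 16043290 (6.54e-141), had 15.3 kb free on its left and 189 kb on its right. The region ranked 8, of 5216 bp at 3772046 to 3777261 (1.72e-106), had 14.6 kb free on its left and 203 kb on its right, and stood in a 100-kb window of 8 regions. These 4 regions each bordered a gap of at least 184 kb, a limit taken from their own values, and 1 of them was alone in its window. The gap of 184 kb ranked 15 by length among the 811 gaps of V. No gap of the middle part was longer than 166 kb, so a region beside a gap of this length could only lie on an arm. The share of all regions of V that border such a gap was not computed.

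The other 6 of the 10 leading regions bordered no gap as long as these. The second, of 3284 bp at 9342889 to 9346172 (5.76e-217), was the last of a run of 6 regions, with a neighbour 379 bp away. The third was a region of 4645 bp at 14685662 to 14690306 (8.50e-179), with a neighbour 649 bp away. The sixth spanned 3117 bp at 6098267 to 6101383 (5.06e-119) and the seventh was the region of 9800 bp (1.54e-107). The ninth spanned 3047 bp at 12352827 to 12355873 (3.25e-101). The tenth was the widest region, in the middle part, with 112 kb free on its left. All 10 were at least 3047 bp wide, and 4 were in the left part, 3 in the middle and 3 in the right. At the threshold of the list, the weakest regions of V had q-values of 0.00994 (766 bp, 12637278 to 12638043), 0.00991 (560 bp, 979490 to 980049) and 0.00991 (87 bp, 13384507 to 13384593). Regions beyond the threshold were not analysed here, so a window without a listed region is not shown to be free of Pol II.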

How the data were processed

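ChIP and input libraries of N2 late embryos (2 each) were compared by the authors. Nothing in the labels says that replicates came from separate cultures. Per the labels, the antibody was 8WG16, although the shared protocol text names serum against GFP. The build is WormBase WS180 per the file headers, and the rows give as their source PeakSeq, which calls regions of ChIP over input. The authors deposited 1 q-value for each region, and all lie below 0.01. Aligner, caller settings, filters, depths and the way replicates were joined are not given in the sources used here.

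Regions were selected by chromosome. Widths, gaps and counts of midpoints in 100-kb windows, in 1-Mb windows and in 3 equal parts of the span were computed from the 1-based coordinates with scipy 1.17.1, pandas 2.3.3 and numpy 2.4.6 under Python 3.11.15 (plots: matplotlib 3.10.9). Gaps of 100 kb or more divide islands, and gaps of 2000 bp or more divide runs. Shares have exact 95% Clopper-Pearson intervals, medians have order-statistic intervals, and ratios have intervals derived from the exact interval of a share. No test was run, since the list gives nothing for single libraries. The functions were tested on simulated data. Named were the 10 smallest q-values, the 5 widest regions, the 5 fullest windows, longest gaps, longest empty stretches and longest runs, with ties, and the 3 regions nearest the threshold. Islands, sparse stretches and further windows were chosen after their values were seen. The members and gene families were chosen with earlier results of these data known. No sequences are shown, because no genome of this build was used here.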

Additional observations from a re-analysis of the deposited data

How the results depend on the processing

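The share of V regions in the middle part stayed within the counting interval of its value in all 6 alternatives (38.2 to 42.6%), and its excess over an even spread was 1.21 times, or 1.18 times for the middle 50%. By covered bases, the share of the list on V moved to 18.2%, the density ratio of V to the other 4 autosomes to 0.751, and the ratio of the right to the left part turned to 0.933. Per protein-coding gene the density ratio was 0.473. At a q-value of at most 0.001, empty windows were 26.8%, the median width 732 bp (202 bp above the other autosomes, 133.5 bp as reported), regions with a midpoint within 2 kb 40.3% and the middle-to-outer ratio of regions per occupied window 0.843. In the stronger 50% of the list by q-value, empty windows were 33.0%, their excess over the other autosomes 20.0 points (13.6 as reported), the median width 886 bp (251 bp above) and near neighbours 34.5%. Merging neighbours closer than 500 bp left near neighbours at 22.0%, and merging those closer than 1000 bp left them at 6.81% with a median width of 638 bp; near neighbours within 1 and 5 kb were 20.4 and 75.2%. With 50-kb windows 40.0% were empty on V, an excess of 20.6 points, and with 200-kb windows 6.67% were, an excess of 6.34 points, with a ratio per occupied window of 1.24. The shifts with window size, neighbour distance and merging follow from those settings. A q-value limit only drops regions, so the share of empty windows on V could not fall. Width and −log10 q-value rose together on V (rho 0.65). For the other shifts at the q-value limits, and for covered bases and genes, the cause was not tested. All alternatives for the ratio to the other autosomes (except per gene), the excesses in empty windows and width and the ratio per occupied window were added after seeing the data. No paired analysis was possible because the values used here are a combined call set, and leaving out a replicate could not be done either.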
